A study of Mus musculus with 4 samples.

Results

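The genes described are the subunits of oxidative phosphorylation in mouse testis, encoded partly in mitochondrial DNA and partly in the nucleus. They were chosen by symbol alone: gene symbols beginning with mt-Nd, mt-Co, mt-Atp, mt-Cytb, Nduf, Uqcr, Cox4 to Cox8 or Atp5, together with Sdha, Sdhb, Sdhc and Sdhd, and with at least 100 unique molecular identifiers (UMIs, each standing for 1 captured mRNA molecule) over the 4 count matrices. This gave 107 members among 55450 annotated features, of which 39634 had at least 1 UMI. The 13 mitochondrially encoded members and 94 nuclear members fell into complex I (46), complex II (4), complex III (9), complex IV (21), complex V (18) and 9 assembly or coupling factors that share the prefixes. The annotation lists 4 of them, Ndufs6b, Ndufb4c and Ndufa11b (counted with complex I) and Cox6c2 (counted with complex IV), as processed pseudogenes, with 310 to 2084 UMIs each and no call between the diets. Another 9 symbols containing "-ps" and 4 rows under the UMI minimum were left out. Ndufs6b with 310 UMIs lay just inside that minimum and Cox6a2 with 77 UMIs just outside it.

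The first 4 complexes of the respiratory chain pass electrons from NADH and succinate to oxygen, and complexes I, III and IV pump protons across the inner mitochondrial membrane as they do so. Complex V, the ATP synthase, uses the proton gradient to make ATP. Complex II is built wholly from nuclear genes, whereas the others combine nuclear subunits with a few core subunits made inside the mitochondrion. Spermatogenic cells shift their energy supply as they mature and replace several somatic subunits with testis forms, and Leydig cells carry out the opening step of testosterone synthesis in their mitochondria.

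Droplet single-cell RNA sequencing (10x Chromium, which counts the 3′ ends of transcripts) was performed on dissociated testes of mice fed a high-fat diet (HFD) or a normal diet (ND). There were 2 libraries from each diet, called HFD 1, HFD 2, ND 1 and ND 2, and no other treatment or allele is named. The labels give no strain, age or length of feeding. They do not say whether a library is 1 mouse or several, so all p-values rest only on these libraries. Those of the fits below share an estimate of spread across genes and do not measure the spread of 1 gene alone. The 4 libraries held 13561 to 15290 barcodes and 143748262 to 154221188 UMIs, and 13156 to 14467 cells per library were kept. Of 57498 distinct barcodes, 339 occurred in 2 libraries. Cells were clustered without the members and without any mitochondrial gene, and clusters were called by the likeness of their markers. The classes were Leydig-like (1177 cells), Sertoli-like (1353), macrophage-like (397), lymphocyte-like (328), fibroblast-like (264), peritubular myoid-like (110), spermatogonia-like (228), early spermatocyte-like (586), Piwil1-high (3525), pachytene and later spermatocyte-like (4496), round spermatid-like (11449) and elongating spermatid-like (9307). Another 21894 cells stayed unnamed, 37.3 to 44.0% of each library, including 404 cells whose markers were nearest to Leydig cells but which were led by Snhg11, Neat1 and Malat1. Levels are given in CPM, UMIs per 1000000 UMIs of a class in 1 library. A 3′ UMI is counted once per molecule whatever the length of the transcript. The name of the peritubular myoid-like class rests on few UMIs: its 5 markers added up to 85.4, 7.88, 405 and 228 CPM in HFD 1, HFD 2, ND 1 and ND 2, below the 521 to 1004 CPM of the 6 fibroblast markers in the same cells.

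How well a mitochondrial member can be counted may depend on its sequence, which was not tested. The mitochondrial genome has nearly identical copies in the nuclear genome, some of them annotated as genes. How reads that fit more than 1 gene were counted is not given in the sources used here. In windows of 90 bases along each transcript (GRCm38, GENCODE M21), 694 of 695 windows of mt-Co3 and 0 of 1055 windows of mt-Cytb were also present in another annotated transcript. The last 60 bases of both genes, the stretch nearest to where a 3′ library reads, are shown on the plus strand, at chrMT:9331-9390 for mt-Co3 (a core subunit of complex IV) and chrMT:15229-15288 for mt-Cytb (the cytochrome b of complex III). Both stretches are exonic.
mt-Co3: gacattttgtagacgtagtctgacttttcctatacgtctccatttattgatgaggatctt
mt-Cytb: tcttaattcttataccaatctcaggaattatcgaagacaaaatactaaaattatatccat
Over all cells mt-Cytb had a mean of 1206 CPM and mt-Co3 2.1 CPM. The share of shared windows was also 99.5% for mt-Co2, 99.49% for mt-Atp6, 98.56% for mt-Nd4l and 97.68% for mt-Nd3. It was 61.06% for mt-Nd4, 33.45% for mt-Co1, 4.21% for mt-Nd2, 0.35% for mt-Nd5 and 0% for mt-Nd1, mt-Nd6 and mt-Atp8. Among the last 300 windows, those nearest the 3′ end, mt-Co1 shared 100% and mt-Nd4 0%. Counts did not follow the sharing throughout. Over the 4 matrices mt-Nd4l, mt-Co3, mt-Co2 and mt-Atp6 had 365 to 10898 UMIs, but mt-Nd3 had 62178 and mt-Co1 210001. Without shared windows, mt-Nd6 had 4107 and mt-Atp8 18386 UMIs. The levels of mt-Co1, mt-Co2, mt-Co3, mt-Atp6, mt-Nd3 and mt-Nd4l are therefore uncertain. The other 7 mitochondrial members share at most 13.33% of these last windows, held 86.1 to 93.9% of the mitochondrial UMIs of each class and library, and are given apart below.

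The nuclear members whose values differ most between cell types include testis forms and their X-linked or widely expressed partners. Cox7b (X:106015700-106022450) and Cox7b2 (5:71442824-71548205) encode alternative forms of a small subunit of complex IV, as do Cox6b1 (7:30616861-30626151) and Cox6b2 (7:4751792-4753094). Their promoters except that of Cox6b1, the 250 bases before the RefSeq start on GRCm38.p6, are printed because these genes moved apart along the germ line. Capitals mark CpG dinucleotides, the sites of DNA methylation. The windows are chrX:106015450-106015699 on the plus strand for Cox7b, chr5:71548206-71548455 on the minus strand for Cox7b2, and chr7:4753095-4753344 on the minus strand for Cox6b2.
Cox7b: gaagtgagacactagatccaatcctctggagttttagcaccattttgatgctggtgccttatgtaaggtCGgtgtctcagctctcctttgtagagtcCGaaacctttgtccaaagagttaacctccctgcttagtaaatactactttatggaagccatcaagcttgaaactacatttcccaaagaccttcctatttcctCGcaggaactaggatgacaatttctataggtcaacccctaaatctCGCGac
Cox7b2: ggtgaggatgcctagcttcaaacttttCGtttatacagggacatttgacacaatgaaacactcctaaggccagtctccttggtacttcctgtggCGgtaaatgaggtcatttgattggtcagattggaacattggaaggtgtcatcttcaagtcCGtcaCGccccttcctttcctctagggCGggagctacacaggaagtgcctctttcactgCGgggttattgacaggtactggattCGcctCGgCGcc
Cox6b2: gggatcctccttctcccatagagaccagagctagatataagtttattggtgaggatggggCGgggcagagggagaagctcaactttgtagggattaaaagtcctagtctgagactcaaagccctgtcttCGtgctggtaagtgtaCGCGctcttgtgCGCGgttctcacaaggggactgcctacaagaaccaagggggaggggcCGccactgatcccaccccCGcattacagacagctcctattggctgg
The windows held 5, 9 and 8 CpG dinucleotides, respectively, and none of the motifs searched. The window of Cox6b1, not printed, held 14 CpG and none of the motifs, so the testis form had more CpG than its partner in 1 pair and fewer in the other. Promoters of that length were found for 73 of the 94 nuclear members, with a median of 15 CpG against 6 over 27025 promoters. Both strands were searched for exact matches. A form of the site of NRF1, a regulator of respiratory genes, was present in 13 of the 73 (17.81%) and in 3.86% of all promoters. CCGGAAGT, a form of the GABP site, was present in 4.11% and 2.93%, the cAMP response element TGACGTCA in 5.48% and 1.62%, and GTTGCC, a part of the X-box, in 9.59% and 10.48%. None of these motifs is contained in another, and a match is a description of the sequence only.

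Transcripts from mitochondrial DNA took up very different shares of the mRNA of each class. In Leydig-like cells the 13 mitochondrial members made up 2.615% and 2.928% of UMIs in HFD 1 and HFD 2 and 3.212% and 3.164% in ND 1 and ND 2. The mean was 2.98% ± 0.273 (SD, n = 4 libraries). Early spermatocyte-like cells (2.43%), Sertoli-like cells (2.33%) and spermatogonia-like cells (1.67%) followed, and the ranges of Leydig-like and early spermatocyte-like cells overlapped, as did those of early spermatocyte-like and Sertoli-like cells. Fibroblast-like, macrophage-like, Piwil1-high, peritubular myoid-like and lymphocyte-like cells lay between 0.982% and 0.503%. The share was 0.401% ± 0.0185 in pachytene and later spermatocyte-like cells, 0.0675% ± 0.00386 in round spermatid-like cells and 0.0639% ± 0.00920 in elongating spermatid-like cells (SD, n = 4 libraries). The last 2 did not separate over the 4 libraries. Unnamed cells had a mean of 0.844%. The 7 members with ends of their own alone gave 2.77% in Leydig-like (2.42 to 2.97%) and 2.25% in early spermatocyte-like cells (2.09 to 2.44%), which also overlapped, 0.358% in pachytene and later, 0.0586% in round and 0.0571% in elongating spermatid-like cells.

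The 94 nuclear members varied far less, from a mean of 3.93% of UMIs in Leydig-like cells to 1.24% in elongating spermatid-like cells. Piwil1-high cells had 3.55%, pachytene and later spermatocyte-like cells 3.12% and round spermatid-like cells 2.09%. The number of mitochondrial UMIs per 100 nuclear member UMIs was 101.5 in Sertoli-like, 92.9 in early spermatocyte-like and 75.7 in Leydig-like cells, and 12.9 in pachytene and later, 5.20 in elongating and 3.23 in round spermatid-like cells. These shares depend on the cell filter, which removed 13 to 42 barcodes per library with over 20% mitochondrial UMIs.

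**Figure D1:**
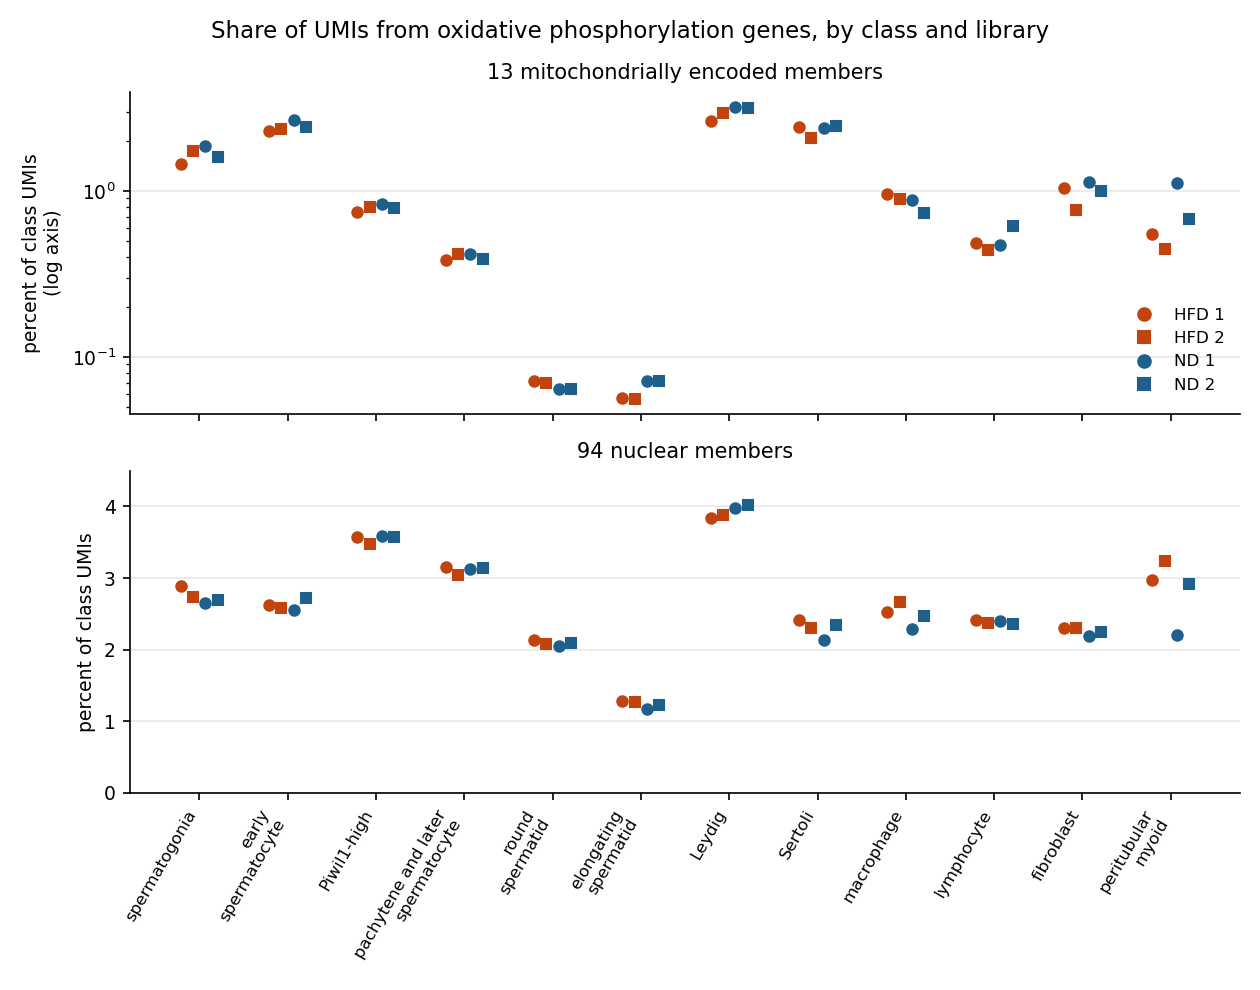
Percent of the UMIs of each class that came from the 13 mitochondrially encoded members (upper, log axis) and the 94 nuclear members (lower, axis from 0), 1 point per library. Mitochondrial members ranged from 2.98% in Leydig-like to 0.0639% in elongating spermatid-like cells, nuclear members from 3.93% to 1.24%.

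Differences between classes were tested in 1 edgeR quasi-likelihood fit of the UMI sums per class and library, with the library as a block and Benjamini-Hochberg adjustment over 15044 genes, of which 101 were members. Because the classes differ in their whole transcriptome, a member is called here only where it passed adjusted p under 0.05 in the same direction under 3 scalings (TMM, RLE and plain totals). Log2 ratios are those under TMM. Plain totals instead moved the median ratio of all genes by -0.01, -0.20, -0.54, -0.85, -0.52 and -0.98 in the 6 contrasts, in the order in which they follow.

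From spermatogonia-like to early spermatocyte-like cells, 18 members rose and 23 fell, against 11.3% and 21.7% of all genes, and 35.6% of all genes passed under TMM alone. The median ratio was 0.06 for members and -0.02 for all genes. Of the 12 mitochondrial members tested 6 rose and 0 fell, 5 of the 6 with ends of their own, while 12 nuclear members rose and 23 fell. At Leiden resolution 2 the early spermatocyte-like class grew from 586 to 2243 cells. Under TMM 77 members then rose and 13 fell, against 23 and 23 at resolution 1, so the balance of rises and falls depends on how the class is drawn. The share of all genes that moved at resolution 2 is not given here, so these counts cannot be set against it. mt-Cytb stood at 4782 to 6005 CPM in the libraries of spermatogonia-like cells and at 7696 to 9220 CPM in early spermatocyte-like cells, ranges that did not overlap (log2 ratio 0.65, SE 0.11, adjusted p = 3.9e-07).

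The nuclear members that moved most in this step belonged to complexes I, II and IV. Cox7b had 52.8, 51.2, 55.5 and 57.0 CPM in spermatogonia-like cells of HFD 1, HFD 2, ND 1 and ND 2 and 4.05, 3.05, 2.65 and 3.89 CPM in early spermatocyte-like cells. All libraries showed the fall (log2 ratio -4.01, SE 0.42, adjusted p = 5.1e-15), which rests on 9 UMIs in early spermatocyte-like cells. Cox8a, a small complex IV subunit of most tissues, fell by 3.07, Cox6b1 by 2.11 and Ndufa4, another complex IV subunit despite its name, by 1.86 on the log2 scale. Ndufs8, an iron-sulfur subunit of complex I, fell by 1.89. Their testis partners went the other way: Cox6b2 rose by 1.11 and Cox7b2 by 1.03, to levels whose ranges overlapped those of macrophage-like cells. Ndufa1, an X-linked subunit of complex I (X:37187588-37191163), rose from a range of 80.9 to 85.5 CPM to one of 238 to 278 CPM (log2 ratio 1.69, SE 0.15, adjusted p = 2.7e-19). The other leading rises were Sdhd, a membrane anchor of complex II, by 1.15 and mt-Nd6 by 1.03.

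The cells named pachytene and later spermatocyte-like differed sharply from early spermatocyte-like cells in mitochondrial transcripts. All 12 mitochondrial members tested fell, with a median of -2.27, and the 7 with ends of their own with a median of -2.41. Of the nuclear members 26 rose and 24 fell, which made 26 rises and 36 falls among all members, against 18.4% and 47.2% of all genes and 72.3% called under TMM. The median ratio was 0.19 for members and -0.65 for all genes. mt-Cytb fell to 999 to 1132 CPM (log2 ratio -2.77, SE 0.11, adjusted p = 4.1e-48), a 6.83-fold difference, and mt-Nd6 and mt-Atp8 fell by 3.13 and 2.66. Median UMIs per cell were 2730 to 3260 in early and 25365 to 31411 in pachytene and later spermatocyte-like cells. With called doublets kept, unnamed clusters nearest to the pachytene markers held 2.518% (4785 cells), 1.148% (4755), 0.439% (7655) and 0.254% (809) mitochondrial UMIs. The likeness was weak: the median log2 ratio of these markers over other clusters was 0.53, 0.69, 0.33 and -0.28 in that order. At least 2-fold up were 1, 0, 1 and 0 of the 6 markers. These clusters had medians of 1766 to 3225 UMIs per cell, and the part of depth was not tested.

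All 3 X-linked members fell in this step. Ndufa1 dropped to 13.5 to 14.5 CPM (log2 ratio -4.07, SE 0.097, adjusted p = 3.4e-74). Ndufb11 (X:20615326-20617619), a complex I subunit, dropped from a range of 19.4 to 37.1 CPM to 0.602 to 0.679 CPM, and Cox7b to 0.359 to 0.619 CPM. Their log2 ratios were -5.23 (SE 0.30, adjusted p = 4.4e-34) and -2.47 (SE 0.69, adjusted p = 0.00086). X-linked genes are silenced in pachytene spermatocytes in general, which is background here. Ndufa4, on chromosome 6, also fell, by 3.08.

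Several nuclear members rose from early to pachytene and later spermatocyte-like cells. Ndufaf3, an assembly factor of complex I, went from a range of 452 to 585 CPM to 1241 to 1302 CPM (log2 ratio 1.52, SE 0.060, adjusted p = 4.1e-50). Cox8c, the testis form of the Cox8a subunit (12:102899316-102900526), rose by 1.44, Ndufa4l2, a paralog of Ndufa4, by 1.27, Uqcrq, a small subunit of complex III, by 1.15, and Atp5d, the delta subunit of the ATP synthase, by 1.01.

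**Figure D2:**
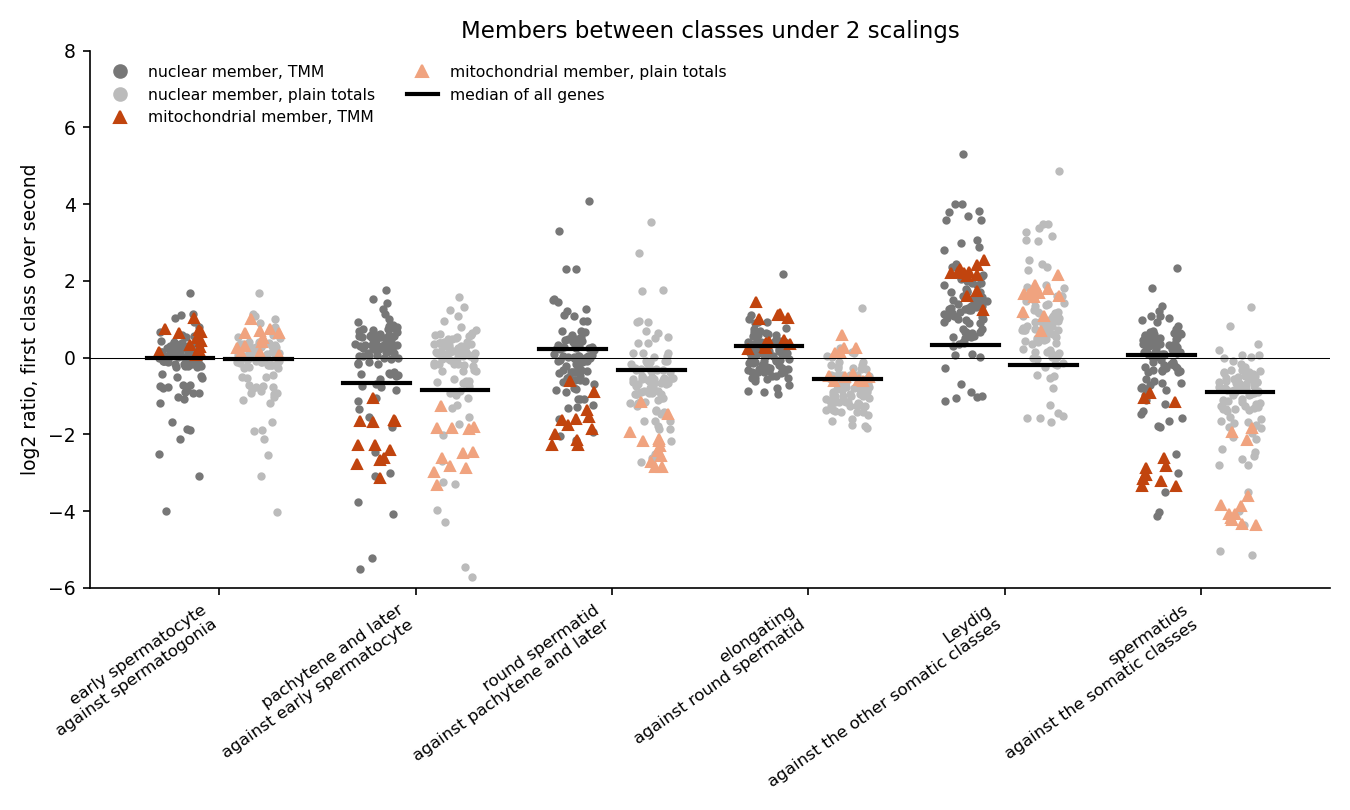
Log2 ratio of each member tested in the 6 contrasts between classes, under TMM (dark points) and plain totals (light points), with mitochondrially encoded members as triangles, nuclear members as circles and the median of all 15044 genes as a line. Under TMM the mitochondrial members sat at a median of -2.27 between early and pachytene and later spermatocyte-like cells, while the nuclear members spread on both sides of 0.

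Round spermatid-like cells again had less of every mitochondrial member tested than pachytene and later spermatocyte-like cells: 12 of 12 fell, with a median of -1.68, and the 7 with ends of their own with a median of -1.86. Among nuclear members 16 rose and 38 fell, so that 16 members rose and 50 fell in all, against 36.6% and 38.8% of all genes and 86.8% called under TMM. The median ratio was -0.09 for members and 0.22 for all genes. mt-Cytb fell to 140 to 157 CPM (log2 ratio -2.29, SE 0.11, adjusted p = 9.9e-42), mt-Nd1 by 2.27 and mt-Nd2 by 2.14.

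Complex II, which has no mitochondrial subunit, lost some of its transcripts here as well. Sdhd fell by 2.16, Sdhc, the other membrane anchor, by 1.59 and Sdha, the flavoprotein that oxidises succinate, by 0.85. Sdhb, the iron-sulfur subunit, was not called under all 3 scalings, with a ratio of 0.22 under TMM and -0.35 under plain totals. Sdhd stood at 75.2 to 82.0 CPM in pachytene and later and 10.8 to 12.99 CPM in round spermatid-like cells.

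Among members with a mean of at least 20 CPM, the strongest rise was that of Atp5mpl, a small membrane subunit of the ATP synthase. It stood at 51.8, 52.9, 58.6 and 58.6 CPM in pachytene and later spermatocyte-like cells of HFD 1, HFD 2, ND 1 and ND 2 and at 374, 360, 371 and 358 CPM in round spermatid-like cells. Each library showed the rise (log2 ratio 3.30, SE 0.046, adjusted p = 3.8e-104). The coupling factor Atp5s rose by 1.54, Atp5g1, which encodes a c-ring subunit of the ATP synthase, by 1.49 and Ndufaf2, an assembly factor of complex I, by 1.26. Ndufa7 rose by 1.07.

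Some members that had been close to 0 were detected again at low levels in round spermatid-like cells. Ndufb11 rose to 6.38 to 8.23 CPM (log2 ratio 4.08, SE 0.13, adjusted p = 3.5e-62) and Cox7b to 1.53 to 1.99 CPM (log2 ratio 2.30, SE 0.19, adjusted p = 4.1e-22). The third X-linked member, Ndufa1, stood at 7.87 to 9.37 CPM, below its range in pachytene and later cells, and was not called (log2 ratio -0.11 under TMM and -0.68 under plain totals, adjusted p = 0.13 under TMM). The levels of Ndufb11 and Cox7b were still below those in spermatogonia-like cells in every library.

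Between round and elongating spermatid-like cells the direction of many members depended on the scaling, with 51 higher under TMM and 6 under plain totals. Under all 3 scalings 6 members rose and 28 fell, against 17.8% and 24.8% of all genes and 75.0% called under TMM. The median was 0.18 for members and 0.30 for all genes. The 6 that rose were Ndufa13, Sdhd, Atp5mpl, mt-Nd2, mt-Nd6 and mt-Nd3, the last with an uncertain level. Ndufa13, a complex I subunit also known as GRIM-19 (8:69894180-69902558), stood at 209 to 217 CPM in round and 509 to 541 CPM in elongating spermatid-like cells (log2 ratio 2.18, SE 0.041, adjusted p = 8.2e-88). Of its windows of 90 bases 24.61% are shared with the overlapping gene Tssk6, but 0% of the last 300. The members that fell most were Uqcrfs1, the Rieske iron-sulfur subunit of complex III, by 0.90, Ndufs1, the largest subunit of complex I, by 0.87, and Cox7c, Cox6a1 and Ndufaf2 by 0.71, 0.62 and 0.55.

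Leydig-like cells stood above the other somatic classes in most members, though less so in complex IV and the assembly or coupling factors. Under all 3 scalings 77 of 101 members were higher and 6 lower, against 29.0% and 20.4% of all genes and 65.8% called under TMM. The median was 1.41 for members and 0.32 for all genes. Higher members comprised 35 of 42 in complex I, 4 of 4 in complex II, 7 of 9 in complex III, 12 of 20 in complex IV, 17 of 17 in complex V and 2 of 9 assembly or coupling factors. They held 11 of 12 mitochondrial members, among them 7 of 7 with ends of their own. The most enriched was Cox7a1, the heart and muscle form of a complex IV subunit (7:30184144-30186078), with 32.6, 37.3, 58.6 and 42.7 CPM in Leydig-like cells of HFD 1, HFD 2, ND 1 and ND 2 (log2 ratio 5.30, SE 0.36, adjusted p = 6.2e-28). Ndufb11 and Ndufa1 were higher by 4.01 each, Cox7b by 3.82 and Ndufa4 by 3.70. The 6 lower members were Cox7b2 (-1.14), Cox6b2 (-1.04), Ndufa4l2 (-1.03), Cox8c (-0.999), Ndufaf3 (-0.90) and Atp5s (-0.69). Leaving out the peritubular myoid-like class gave 82 higher and 6 lower, and leaving out the Sertoli-like class 76 and 6, alternatives added after seeing the data. The same 6 members were lower in both.

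Against all somatic classes, the spermatid-like classes had 4 members higher and 44 lower under all 3 scalings, compared with 24.3% and 31.8% of all genes and 74.8% called under TMM. The medians were -0.07 for members and 0.08 for all genes. The Sertoli-like class, one of the somatic classes, held 76610 CPM of the 6 elongating spermatid markers, against 26080 CPM over all cells and 1605 CPM of its own 6 markers. Without it 5 members were higher and 46 lower, and without the peritubular myoid-like class 6 and 44, with all 4 higher members and 44 and 43 of the 44 lower ones kept. The 4 higher were Atp5mpl (2.33), Atp5s (1.82), Ndufaf2 (1.36) and Ndufa4l2 (1.21). Of 12 mitochondrial members 10 were lower, among them 7 of 7 with ends of their own, mt-Cytb by 3.36 and mt-Nd1 by 3.22, and Cox7b and Ndufa4 were lower by 4.14 and 4.03.

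The testis forms of complex IV subunits took up most of the UMIs of their pairs in the germ cell classes. Cox6b2 made up 57.2% ± 5.72 of the UMIs of Cox6b1 and Cox6b2 in spermatogonia-like cells, 92.5% ± 1.81 in early spermatocyte-like cells and 97.7% ± 0.0898 in pachytene and later spermatocyte-like cells (SD, n = 4 libraries). Cox8c made up 75.4%, 97.2% and 99.6% of its pair with Cox8a in the same classes, and Cox7b2 86.9%, 99.55% and 99.95% of its pair with Cox7b. The mean shares were 96.7 to 99.7% in round and elongating spermatid-like cells. In Leydig-like cells the testis forms were the minority: 29.8%, 26.4%, 21.8% and 22.0% for Cox6b2 in HFD 1, HFD 2, ND 1 and ND 2, 42.2%, 39.3%, 32.6% and 34.0% for Cox8c, and 44.2%, 42.0%, 30.2% and 30.3% for Cox7b2. The HFD libraries lay above the ND libraries in all 3 pairs, but of the testis forms only Cox7b2 was called between the diets there. How many of all genes split in this way is not given here. In the same sums the 6 pachytene and later markers added up to 567.5 and 542 CPM in HFD and 397.3 and 438.4 CPM in ND. Their part in these shares was not tested.

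Transcripts of late germ cells were counted in every class, as free RNA in a droplet suspension can be. Prm1, a protamine of late spermatids, stood in Leydig-like cells at 3.70% of its level in elongating spermatid-like cells, in macrophage-like cells at 8.75% and in Sertoli-like cells at 56.15%. Macrophage-like cells held 1911 CPM of Cox8c against 2382 CPM over all cells. There Cox6b2, Cox8c and Cox7b2 made up 82.8%, 88.1% and 91.0% of their pairs, at 693, 1911 and 639 CPM. Spermatogonia-like cells lay below these shares and levels, with 386, 1054 and 367 CPM, and had 4.73% of the Prm1 level, so these UMIs do not show that spermatogonia-like cells express the testis forms. In early spermatocyte-like cells the levels (825, 1405 and 745 CPM) had library ranges that overlapped those of macrophage-like cells. In Piwil1-high and pachytene and later spermatocyte-like cells every library lay above every library of macrophage-like, lymphocyte-like and fibroblast-like cells for all 3 genes. Peritubular myoid-like cells (110 cells) did not follow the other somatic classes: Cox8c stood at 3312, 3593, 2186 and 2989 CPM and Cox7b2 at 1127, 985, 793 and 883 CPM in HFD 1, HFD 2, ND 1 and ND 2. All of these lay above every macrophage-like library, and the ranges of both genes overlapped those of pachytene and later spermatocyte-like cells. The part of free RNA in the levels and shares of any class was not tested. The other 3 pairs had no testis form of note. Cox4i2 had 13 and Cox6a2 72 UMIs over all kept cells, and Cox7a1 made up 3.78 to 7.26% of its pair with Cox7a2 in the libraries of Leydig-like cells. The highest value in a library of any other named class was 2.25%, in fibroblast-like cells, where the 4 libraries held 3 UMIs of Cox7a1.

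**Figure D3:**
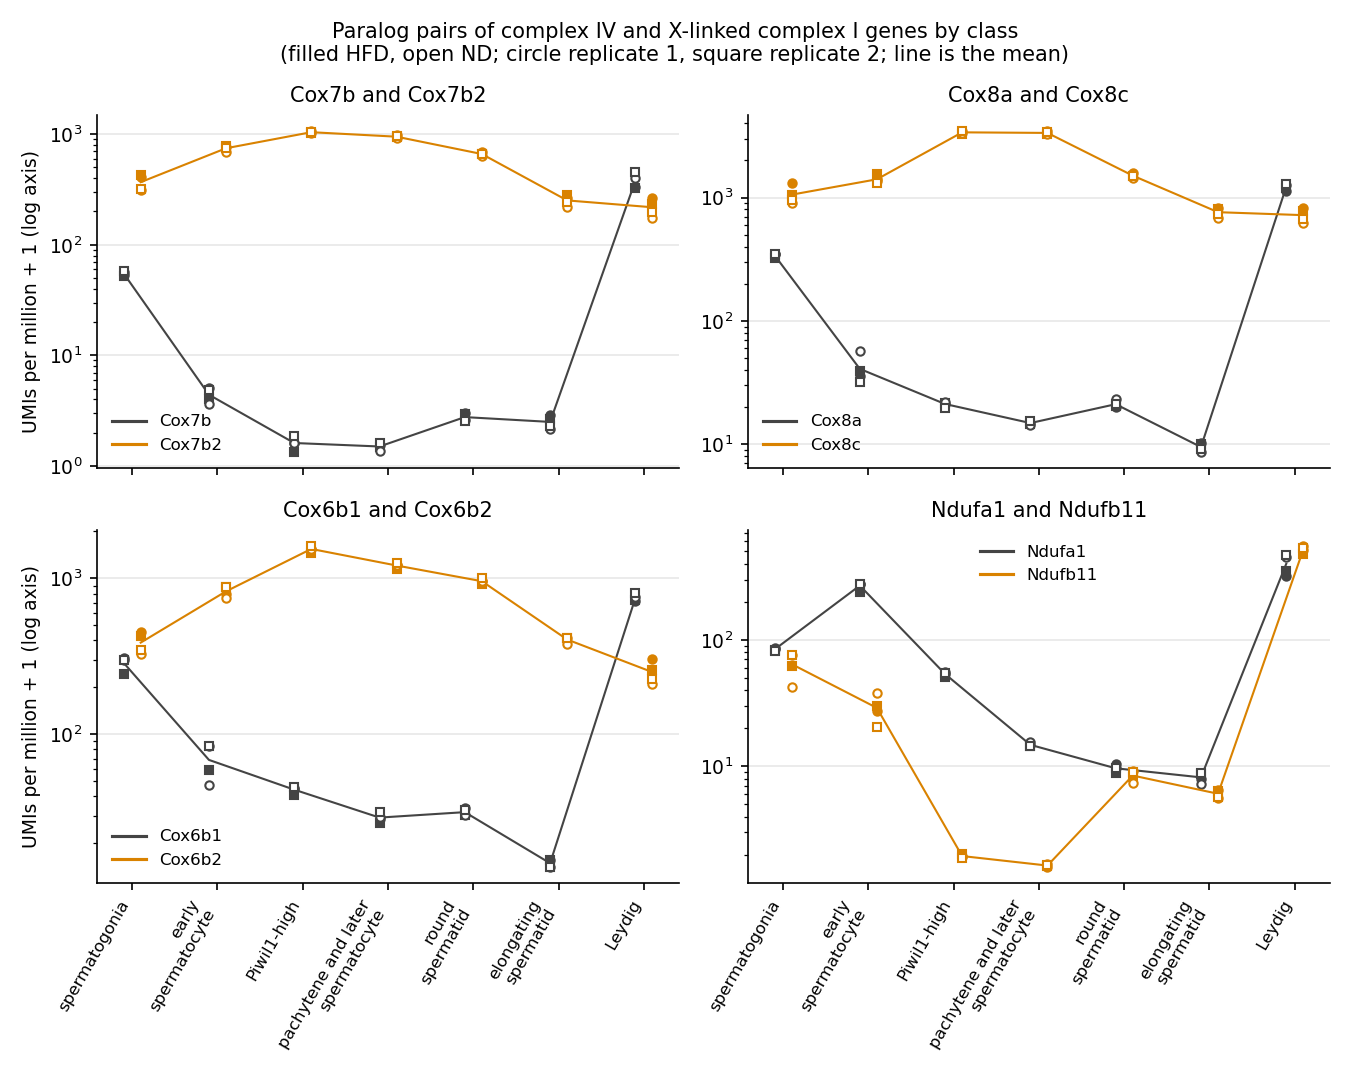
Level (CPM plus 1, log axis) of both partners of 3 complex IV pairs and of the X-linked Ndufa1 and Ndufb11 in the germ cell and Leydig-like classes, 1 point per library (filled HFD, open ND) with a line through the means. The testis forms Cox7b2, Cox8c and Cox6b2 lie above their partners in every germ cell class and below them in Leydig-like cells, where Cox6b2 took 24.98% of its pair on average.

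HFD and ND were then compared within each compartment, with edgeR on the sums of the 4 libraries and adjustment over all genes tested. The leading members named below were chosen partly because their libraries did not overlap between the diets. For them the lack of overlap is no separate support. Over all cells 23 members were higher in HFD and 10 lower, where 34.0% of 25485 genes passed. The share of members called (30.8%) was thus close to the background. The median ratio was 0.06 for members and -0.02 for all genes. The rises comprised 7 members of complex I, 3 of 4 in complex II, 3 of complex III, 6 of complex IV, 2 of complex V and 2 assembly or coupling factors, and the falls 2, 0, 0, 5, 2 and 1.

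The members that were lower in HFD over all cells were mostly genes with high levels in Leydig-like cells. Cox7b stood at 5.91 and 5.48 CPM in HFD and 8.62 and 9.44 CPM in ND (log2 ratio -0.66, SE 0.072, adjusted p = 1.9e-05). Cox8a stood at 34.7 and 34.1 CPM in HFD and 43.9 and 43.6 CPM in ND (log2 ratio -0.34, SE 0.043, adjusted p = 4.6e-05). The diets did not overlap for either gene. Ndufa4 (-0.41), Ndufa1 (-0.26), Cox7a1 (-0.69) and Ndufb11 (-0.44) also fell. Leydig-like cells made up 1.60% and 1.72% of the kept cells in HFD and 2.53% and 2.63% in ND, and in bulk sums fewer cells of a type and less RNA per cell cannot be told apart. The unnamed cells nearest to Leydig cells are not in these shares and stay in the sums without Leydig-like cells below. With called doublets kept, the unnamed cluster nearest to Leydig cells held 156, 96, 69 and 139 cells in HFD 1, HFD 2, ND 1 and ND 2. The level in Leydig-like cells over that in all cells had a median of 24.8 among the 10 lower members and 1.75 among the 23 higher ones. With the Leydig-like cells left out of the sums, an alternative added after seeing the data, 3 of the 10 remained lower (Ndufaf6, Atp5g1 and Atp5mpl) and 20 of the 23 remained higher. The ratios of Cox7b and Cox8a were then 0.00 and -0.09. Among all genes 29.6% passed in those sums. Leydig-like cells held 2830 of the 4029 UMIs of Cox7b over all cells and 8998 of the 21435 UMIs of Cox8a. Leaving these cells out takes such UMIs away, so it cannot tell fewer cells from a lower level in them.

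The members that were higher in HFD over all cells had ratios of 0.11 to 0.36. Atp5k, the e subunit of the ATP synthase, led with 258 and 259 CPM in HFD and 229 and 174 CPM in ND (log2 ratio 0.36, SE 0.081, adjusted p = 0.0029), and ND 2 was the low library. Ndufaf3 had 794 and 815 CPM in HFD and 672 and 664 CPM in ND (0.27, SE 0.036, adjusted p = 5.6e-05). Ndufa3, a complex I subunit, had 77.1 and 76.9 CPM in HFD and 68.4 and 60.5 CPM in ND (0.26, SE 0.051, adjusted p = 0.0010). Of the complex II genes Sdhd, Sdhc and Sdha passed with 0.19, 0.14 and 0.12, while Sdhb had 0.08. Cox8c and Cox7b2 rose by 0.16 and 0.13 (Cox7b2 was not called without the Leydig-like cells), and mt-Co1, whose 3′ end is shared with the annotated gene Gm29216 (350 UMIs), by 0.17, with no other mitochondrial member called. mt-Nd3 stood at 64.1 CPM in ND 2 and 109 to 125 CPM in the other libraries. Pachytene and later spermatocyte-like cells made up 8.84% and 10.4% of cells in HFD and 6.68% and 6.84% in ND, and round spermatid-like cells 18.2% in both HFD libraries and 23.1% and 23.2% in ND. The part of these shares in the small rises was not tested.

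Within Leydig-like cells 2 members were higher in HFD and 4 lower, where 3.48% of 11664 genes passed and 5.83% of the 103 members tested did. The median was -0.09 for members and -0.01 for all genes. Ndufa1 stood at 319 and 351 CPM in HFD and 455 and 469 CPM in ND (log2 ratio -0.50, SE 0.089, adjusted p = 0.00062). Cox7b stood at 333 and 324 CPM against 404 and 453 CPM (-0.42, SE 0.089, adjusted p = 0.0047). mt-Nd1, a core subunit of complex I, stood at 5272 and 5935 CPM against 6932 and 7055 CPM (-0.36, SE 0.084, adjusted p = 0.011). In all 3 genes both HFD libraries lay below both ND libraries, as the rule for naming leading members asks. Cox6a1, another complex IV subunit, was lower by 0.35 (adjusted p = 0.012).

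The other mitochondrial members of Leydig-like cells did not pass. Of the 12 tested, 10 had ratios below 0, with a median of -0.21 (5 of the 7 with ends of their own, median -0.24), and mt-Cytb had 8266 and 9199 CPM in HFD and 9475 and 9711 CPM in ND (-0.17, adjusted p = 0.31). The share of mitochondrial UMIs was lower in both HFD libraries than in either ND library, with an exact permutation p of 0.33, the smallest that 2 against 2 libraries allow (two-sided). Ndufb11 had a ratio of -0.18 (adjusted p = 0.31).

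The 2 members higher in HFD within Leydig-like cells were among the 6 that were lower there than in other somatic classes. Ndufaf3 had 283 and 258 CPM against 204 and 203 CPM (0.37, SE 0.095, adjusted p = 0.022). Cox7b2 had 264 and 234 CPM against 175 and 197 CPM (0.38, SE 0.099, adjusted p = 0.023). In the same sums the 6 markers of pachytene and later spermatocytes added up to 567.5 and 542 CPM in HFD and 397.3 and 438.4 CPM in ND, with 5 of 6 higher in both HFD libraries and none at 0. The 6 markers of elongating spermatids added up to 4177 to 6652 CPM without a split by diet, and the 6 Leydig markers to 16010 and 16110 CPM in HFD and 20850 and 17270 CPM in ND. The part of these in the result was not tested. Leaving out 1 library at a time gave 2 (without HFD 1) to 14 (without HFD 2) members called in this class. Without HFD 1 neither Ndufaf3, Cox7b2 nor mt-Nd1 passed, without ND 1 neither Ndufaf3 nor Cox7b2, and without ND 2 neither Ndufaf3 nor Cox7b. Ndufa1 passed in all 4. With called doublets kept it was the only member that passed.

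**Figure D4:**
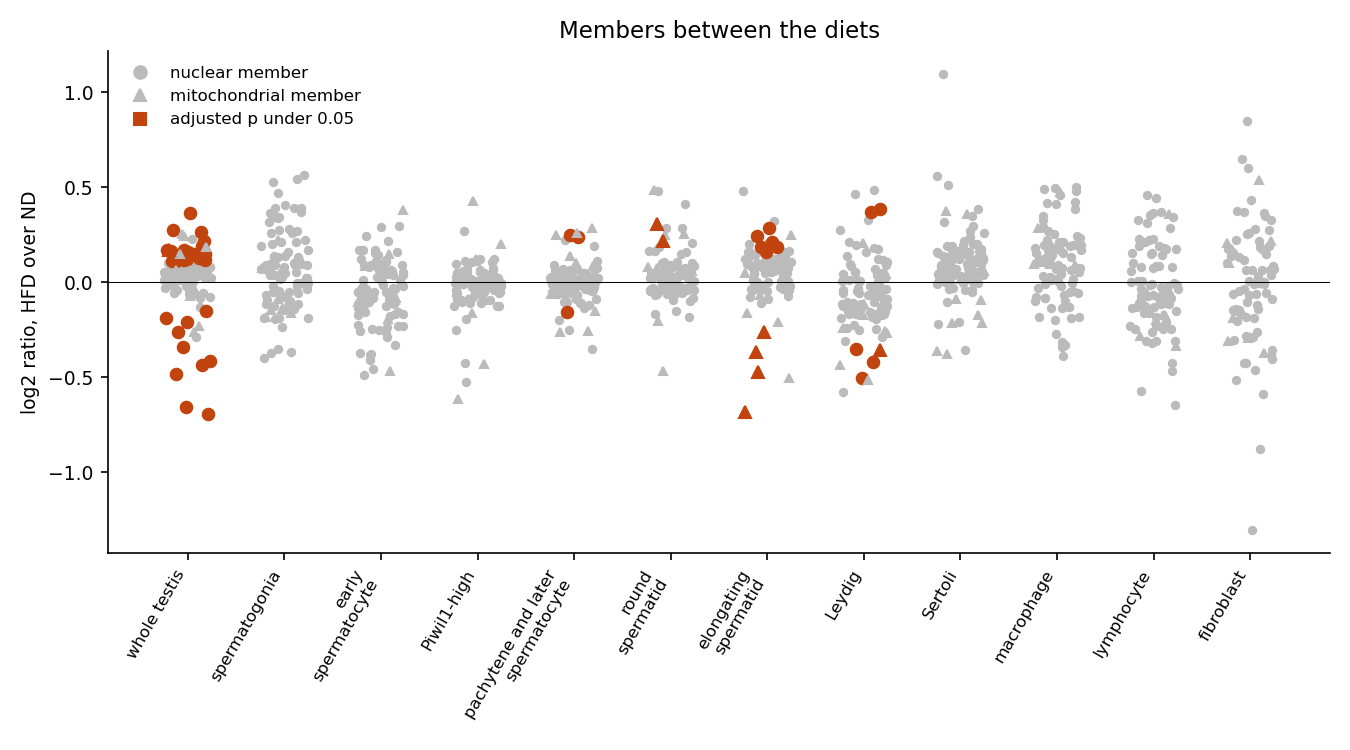
Log2 ratio of HFD over ND for the members tested in each compartment, with called members marked. Over all cells 33 of 107 members passed, in Leydig-like cells 6 of 103 and in elongating spermatid-like cells 10 of 99.

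In elongating spermatid-like cells 4 mitochondrial members were lower in HFD and 6 nuclear members higher. Of 99 members tested 6 were higher and 4 lower (10.1%), where 4.64% of 15891 genes passed. The 4 lower were all mitochondrial members with ends of their own. mt-Cytb stood at 136 and 128 CPM in HFD and 208 and 202 CPM in ND, a 1.60-fold difference (log2 ratio -0.68, SE 0.047, adjusted p = 6.2e-12). mt-Nd4 stood at 101 and 98.0 CPM against 133 and 134 CPM (-0.47, SE 0.049, adjusted p = 1.4e-07). mt-Nd2 stood at 112 and 111 CPM against 140 and 139 CPM (-0.37, SE 0.048, adjusted p = 1.1e-05). The 2 libraries of a diet lay close together and the diets did not overlap. mt-Nd1 was lower by 0.26 (adjusted p = 0.0010), and 8 of 10 mitochondrial members tested had ratios below 0, with a median of -0.24. mt-Co1 had a ratio of -0.07 (adjusted p = 0.61). Mitochondrial UMIs per 100 nuclear member UMIs were 4.42 and 4.36 in HFD and 6.13 and 5.87 in ND (exact permutation p = 0.33, two-sided).

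The 6 higher members were nuclear: Atp5k (0.29), Uqcrc2, a core subunit of complex III (0.24), Cox7b2 (0.21), Atp5d (0.18), Ndufaf3 (0.18) and Cox8c (0.16). Cox7b2 had 266 and 281 CPM in HFD and 216 and 241 CPM in ND (SE 0.045, adjusted p = 0.0053), and Cox8c 821 and 808 CPM against 675 and 735 CPM. The diets did not overlap in either gene. All of the last 300 windows of Uqcrc2 are shared with Pdzd9, which had 182939 UMIs, so reads of these genes may not be told apart. Without HFD 2 neither Atp5k, Uqcrc2 nor Cox7b2 passed, without ND 2 Atp5k did not pass and had a ratio of 0.12, and Uqcrc2 also failed without HFD 1 or ND 1. The number of members called ranged from 4 (without HFD 2) to 18 (without ND 2), and mt-Cytb passed in all 4 such fits with ratios of -0.74 to -0.63. The 6 Leydig markers added up to 19.6 and 20.2 CPM in HFD and 18.3 and 20.8 CPM in ND. The 6 pachytene and later markers added up to 413 and 440 CPM in HFD and 355 and 377 CPM in ND, with 4 of 6 higher in both HFD libraries, and the 6 early spermatocyte markers to 70.0 and 72.8 CPM against 56.2 and 66.6 CPM, with 4 of 6 higher. The 6 elongating markers added up to 144700 and 139600 CPM in HFD and 149700 and 147700 CPM in ND, with 3 of 6 lower. No marker of these 4 lists was at 0, and their part in the differences between the diets was not tested.

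The elongating spermatid-like class held 5 clusters whose mitochondrial share differed, from a mean of 0.0274% in cluster 9 to 0.176% in cluster 1. Each cluster was also fitted alone, an alternative added after seeing the data. The ratio of mt-Cytb was -0.95 in cluster 0 (2175 cells, adjusted p = 4.3e-11), -1.04 in cluster 1 (1247 cells, adjusted p = 0.00063), -0.86 in cluster 2 (1164 cells, adjusted p = 0.00021) and -0.68 in cluster 7 (1874 cells, adjusted p = 5.4e-10). In cluster 7 the libraries overlapped, with 191 and 246 CPM in HFD and 421 and 218 CPM in ND. The fit shares its estimate of spread across genes, so the p-value of cluster 7 does not measure the spread of mt-Cytb alone. In cluster 9, the largest with 2847 cells and the one with the most Acrv1, a round spermatid gene (296 to 320 CPM against 23.2 to 74.0 CPM in the others), the ratio was 0.06 (adjusted p = 0.79). There mt-Cytb stood at 60.2 and 65.4 CPM in HFD and 59.99 and 56.5 CPM in ND. In the same cluster mt-Nd1 was higher in HFD, at 61.2 and 69.2 CPM against 50.2 and 56.9 CPM (ratio 0.24, edgeR adjusted p = 0.23). The difference in mt-Cytb passed the test in 4 of the 5 clusters, with no overlap of the diets in clusters 0, 1 and 2. It was not tested whether the ratios differ between clusters. Among all genes 2.59%, 0.0381%, 0.0423%, 2.63% and 0.220% passed in clusters 0, 1, 2, 7 and 9.

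**Figure D5:**
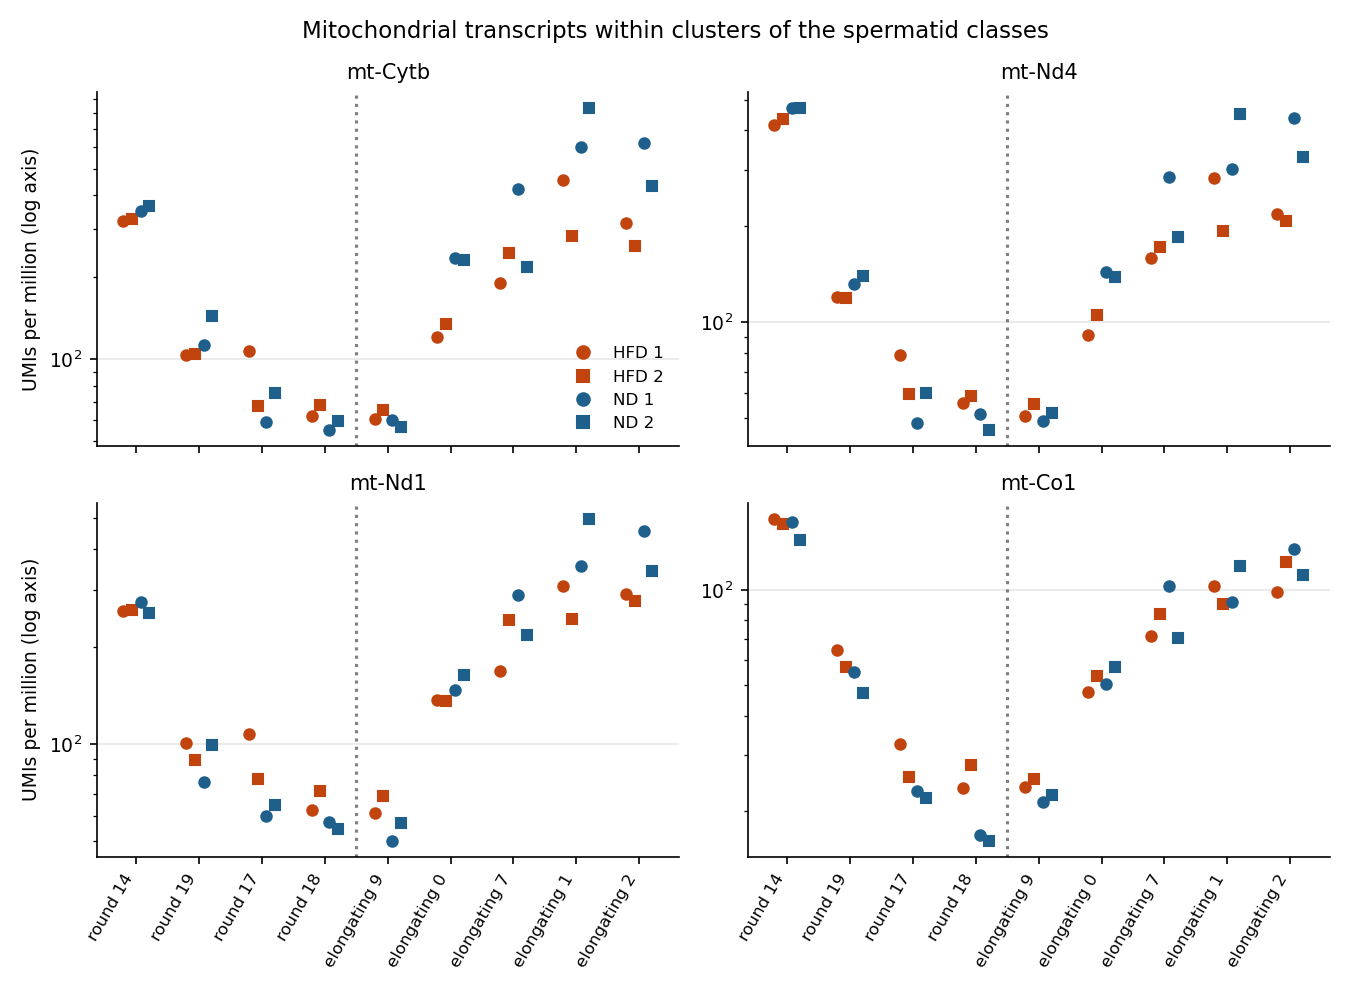
Level of mt-Cytb, mt-Nd4, mt-Nd1 and mt-Co1 (CPM, log axis) in each cluster of the round and elongating spermatid-like classes, 1 point per library. For mt-Cytb the HFD points lie below both ND points in elongating clusters 0, 1 and 2, but not in cluster 9, where all 4 levels lie between 56.5 and 65.4.

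In round spermatid-like cells 2 of 105 members passed (1.90%), where 1.95% of 19313 genes did, and both were higher in HFD. mt-Nd1 stood at 138 and 131 CPM in HFD and 113 and 114 CPM in ND (log2 ratio 0.22, SE 0.037, adjusted p = 0.016). mt-Co1, the catalytic subunit of complex IV, stood at 75.4 and 72.0 CPM against 62.6 and 54.4 CPM (0.31, SE 0.058, adjusted p = 0.026), a gene with a shared 3′ end. The diets did not overlap, and 10 of 12 mitochondrial members had ratios above 0, 7 of 7 among those with ends of their own. Cluster 14, the part of this class with the most mitochondrial RNA (0.155% against 0.0274 to 0.0521% in the other 3), made up 30.1% and 30.4% of the class in HFD and 24.5% and 24.2% in ND. Within cluster 14 alone the ratio was -0.05 for mt-Nd1 and 0.09 for mt-Co1. The ratios of mt-Cytb, mt-Nd2 and mt-Nd4 were below 0 in cluster 14 (-0.14, -0.20 and -0.15) and cluster 19 (-0.32, -0.10 and -0.19). They were above 0 in cluster 17 (0.37, 0.40 and 0.34) and cluster 18 (0.16, 0.30 and 0.21), and none was called. The counts above for the class thus do not hold in each cluster. mt-Nd1 passed in cluster 17 (0.56, adjusted p = 0.013) and mt-Co1 in cluster 18 (0.63, adjusted p = 0.020), where 0.167% and 0.119% of genes passed. In the sums of the class the 6 pachytene and later markers stood at 1015 and 1027 CPM in HFD and 958 and 977 CPM in ND, with 5 of 6 higher in both HFD libraries. The 5 round spermatid markers stood at 1912 and 1888 CPM against 1988 and 1990 CPM, with 5 of 5 lower, and none of either list was at 0. The part of these in the result was not tested. Without HFD 1 neither gene passed, and without HFD 2 mt-Co1 did not. The number of members called ranged from 0 (without HFD 1) to 15 (without ND 1), and with called doublets kept it was 0.

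The diet effect on mt-Nd1 was tested between classes by an interaction term with both classes in 1 edgeR fit, where sums from the same library count as independent samples. The test was run only because mt-Nd1 was called in opposite directions in these same counts, so its p-values are no separate support. The diet effect was lower by 0.44 in elongating than in round spermatid-like cells (SE 0.058, adjusted p = 0.0032 over 18911 genes). It was lower by 0.54 in Leydig-like than in round spermatid-like cells (SE 0.090, adjusted p = 0.0012 over 20421 genes).

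In pachytene and later spermatocyte-like cells 2 members were higher and 1 lower of 103 tested (2.91%), where 3.14% of 16193 genes passed. Ndufa4l2 had 165 and 160 CPM in HFD and 139 and 142 CPM in ND (log2 ratio 0.24, SE 0.040, adjusted p = 0.0053). Ndufa3 had 101 and 99.9 CPM against 93.5 and 78.8 CPM (0.25, SE 0.060, adjusted p = 0.035), and its ratio was 0.13 and not called without ND 2, the low library. Atp5g1 had 111 and 119 CPM against 131 and 130 CPM (-0.16, SE 0.042, adjusted p = 0.049). The 5 round spermatid markers added up to 32.97 and 35.8 CPM in HFD and 41.4 and 53.2 CPM in ND, with 4 of 5 lower in both HFD libraries, and the 6 elongating markers to 1750 and 1676 CPM against 1791 and 2306 CPM, with 4 of 6 lower and none of either list at 0. Their part in these differences was not tested. Neither Ndufa4l2 nor Atp5g1 passed without HFD 1, and 3 (without HFD 1) to 17 (without ND 1) members passed when a library was left out. With called doublets kept 0 passed.

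No member passed in the remaining classes. In Piwil1-high cells 0 of 104 passed, where 2.49% of all genes did, with 14 at an unadjusted p under 0.05 and 0 by DESeq2. Other settings did call members there: 12 without ND 1, 3 without ND 2, 7 without the expression filter and 3 with called doublets kept. In macrophage-like cells 0 of 91 passed (2.03% of all genes, 2 members at an unadjusted p under 0.05), and in lymphocyte-like cells 0 of 90 (0.111% of all genes, 0 members). In Sertoli-like, early spermatocyte-like, fibroblast-like and spermatogonia-like cells 0% of genes passed, with 9 of 100, 9 of 95, 6 of 83 and 10 of 93 members at an unadjusted p under 0.05 in edgeR and 0 called by DESeq2. Leaving out 1 library called at most 1 member in Sertoli-like, early spermatocyte-like and macrophage-like cells. The shares of all genes at an unadjusted p under 0.05 and under the other settings are not given here. Those counts of members therefore cannot be set against a background. Spermatogonia-like cells numbered only 50 in the smallest library, and peritubular myoid-like cells with 25 were not tested.

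Other genes of mitochondrial energy supply were counted from 5 lists, as a background to the subunits. Over all cells 1 of 12 electron and ADP/ATP carriers was higher in HFD and 6 lower, 10 and 2 of 29 assembly factors of complexes II to V, 5 and 3 of 19 genes for the expression of mitochondrial DNA, 3 and 2 of 8 nuclear regulators of biogenesis, and 1 and 5 of 17 genes of pyruvate dehydrogenase and the citric acid cycle. The shares called were 58.3%, 41.4%, 42.1%, 62.5% and 35.3% in that order, where 34.0% of all genes passed, so those of the longer lists were near the background. Examples were Mtif3, a mitochondrial translation initiation factor (0.37), Cox10, which makes the heme of complex IV (0.25), Slc25a31, the testis ADP/ATP carrier (0.17), Fh1, the fumarase (-0.39), and Mdh2, the malate dehydrogenase (-0.31). In elongating spermatid-like cells 1 of 11 carriers tested (Vdac2, a channel of the outer membrane, 0.13) and 1 of 16 citric acid cycle genes were higher, and of 19 genes for the expression of mitochondrial DNA 1 was higher and 1 lower. These shares were 9.09%, 6.25% and 10.5%, each from 1 or 2 genes, where 4.64% of all genes passed. The lower gene, Tfam, which packages and transcribes mitochondrial DNA, had 1059 and 1036 CPM in HFD and 1103 and 1127 CPM in ND (-0.14, SE 0.034, adjusted p = 0.015). Cox14, an assembly factor of complex IV, was lower in Leydig-like (-0.37) and pachytene and later spermatocyte-like cells (-0.20), and Coa3, another, was higher in round spermatid-like cells (0.18). No other gene of the lists passed in those classes. Among all genes 3.48% passed in Leydig-like, 3.14% in pachytene and later and 1.95% in round spermatid-like cells. Along the germ line 11 of 19 genes for the expression of mitochondrial DNA fell from pachytene and later to round spermatid-like cells, while Tfam and Tfb1m rose. Of all genes 38.8% fell and 36.6% rose there. In Leydig-like cells against the other somatic classes 8 of 12 carriers, 15 of 28 assembly factors, 9 of 17 citric acid cycle genes, 6 of 19 genes for the expression of mitochondrial DNA and 1 of 6 regulators were higher, and 3, 3, 2, 1 and 0 lower, against 29.0% and 20.4% of all genes.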

How the data were processed

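For each of the 4 libraries the authors deposited a gene by barcode matrix of raw UMI counts, per the file headers, which name software version 3.0.2. The genome build is mm10, per the submitters' processing notes, and the aligner is not given in the sources used here. All 55450 gene identifiers matched GENCODE M21 (GRCm38), which gave coordinates. Barcodes under 200 genes or over 20% mitochondrial UMIs were removed, and Scrublet (scanpy 1.11.5, expected doublet rate 0.1) marked 387, 780, 781 and 665 doublets in HFD 1, HFD 2, ND 1 and ND 2, which were left out. Clustering used 2000 variable genes without members and mt- genes, 30 principal components, 15 neighbours and Leiden resolution 1 (Python 3.11.15, numpy 2.4.6). Clusters were named from marker lists by a score of at least 0.5, a rule set after the clusters were seen, and depth or leading genes of another class left clusters unnamed. UMI counts were summed per library and class. Diet fits needed at least 50 cells in every library and contrasts between classes at least 20. The sums were tested with the quasi-likelihood test of edgeR 4.0.16 (TMM, filterByExpr, Benjamini-Hochberg adjustment, threshold 0.05) in R 4.3.3, with DESeq2 1.42.0 as an alternative. Standard errors (SE) were obtained as the absolute log2 ratio over the square root of F. Code was tested on simulated data. Levels in CPM count UMIs per 1000000 UMIs of the class in that library, with class sums of 13 mitochondrial and 94 nuclear members given as a percent. Replicate numbers did not pair the samples, since deviations of same-numbered libraries correlated by 0.04 over 25485 genes. Alternatives were another normalisation, no filter, the block, the cell filters, a finer clustering and leaving out each library, and, added after seeing the data, leaving out 1 somatic class from the contrasts or the mitochondrial members with at least 20% of their last windows shared. The members and lists were chosen with earlier results of these data known. Named genes are the mitochondrial and complex II members, both partners of 6 pairs, and leading called members with at least 20 CPM. The leading members were ranked by size of the log2 ratio. In diet fits their libraries did not overlap between the diets (up to 3 per direction and fit, 2 per further list). In contrasts between classes they were called under TMM with the same direction in every library (up to 5 per direction). X-linked and low members were named after their values were seen.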

Additional observations from a re-analysis of the deposited data

Results flagged for a closer look

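The diet effect on mt-Nd1 differed between classes by a test of the difference itself, run only because the gene was called in opposite directions in them. The log2 ratio of HFD over ND in elongating minus that in round spermatid-like cells was -0.44, and that in Leydig-like minus that in round spermatid-like cells was -0.54. Fitted alone, elongating cluster 9 gave a ratio of 0.24 and round cluster 14 one of -0.05, neither called.

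Ndufb1-ps, which the rule on symbols left out, carried 221377 UMIs over the 4 matrices (60603 and 57958 in HFD, 53905 and 48911 in ND), a signal outside the genes compared. Its level over all cells was 392, 387, 376 and 336 CPM in HFD 1, HFD 2, ND 1 and ND 2. The annotation lists it as a long non-coding RNA from a bidirectional promoter at 12:101968090-101977068.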

How the results depend on the processing

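With 2 libraries per diet the exact permutation test cannot go below 0.33, and shallow classes limit the members that can be called. Of 302 repeats of named diet ratios over 22 genes, 227 kept direction and call, 71 kept the direction without passing and 4 turned: fitted alone, elongating cluster 9 gave mt-Cytb 0.0623, mt-Nd2 0.11 and mt-Nd4 0.0304, and round cluster 14 gave mt-Nd1 -0.0458. Outside this count, mt-Nd1 also turned in elongating cluster 9, with a ratio of 0.24. The cause was not tested. Same-numbered libraries correlated by 0.04, so they share only a number. With the replicate block the members called numbered 0 in Leydig-like, 5 in Piwil1-high, 7 in pachytene and later and 6 in round spermatid-like cells. Without the expression filter the counts were 12 in Leydig-like, 7 in Piwil1-high, 1 in pachytene and later and 0 in round spermatid-like cells. With doublets kept they were 1, 3, 0 and 0 in the same order. Without the mitochondrial limit they were 1 in pachytene and later and 4 in round spermatid-like cells, with DESeq2 1 in pachytene and later, and at Leiden resolution 2, 20 in elongating spermatid-like cells. Over all cells the split of higher and lower members was 23 and 10, with DESeq2 29 and 9, RLE 31 and 10, no filter 13 and 9, and the block 30 and 12. In the contrasts between classes, Leiden resolution 2 under TMM alone gave 77 higher and 13 lower for early spermatocytes against spermatogonia and 23 higher for round spermatids. Plain totals gave 34 higher for pachytene and later cells, 16 higher and 81 lower for round spermatids, 6 higher and 86 lower for elongating spermatids, 12 lower for Leydig-like cells, and 4 higher and 88 lower for spermatids against somatic classes. RLE gave 26 higher for pachytene and later cells and 23 higher for spermatids against somatic classes. Under all 3 scalings the higher members numbered 26 for pachytene and later cells, 16 for round, 6 for elongating and 4 for spermatids against somatic classes. The HFD minus ND difference in percent of UMIs was -0.0641 for nuclear members of Leydig-like cells with doublets kept. For mitochondrial members it was 0.00825 in round spermatid-like cells without the mitochondrial limit and 0.00350 with doublets kept, and -0.0125 and -0.0228 in elongating spermatid-like cells. Leaving out the mitochondrial members with shared ends gave 0.00481 for round spermatid-like cells. Spermatogonia-like cells fell under 50 per library in the reclustered settings, so these gave no value. Shares of all genes called between the diets under the block, without the expression filter or with doublets kept are not given here.

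Leaving out each library in turn gave 32 to 46 members called over all cells, 2 to 14 in Leydig-like, 0 to 12 in Piwil1-high, 4 to 18 in elongating, 3 to 17 in pachytene and later, 0 to 15 in round, 0 to 1 in Sertoli-like, early spermatocyte-like and macrophage-like cells, and 0 to 0 in fibroblast-like, lymphocyte-like and spermatogonia-like cells. In these fits the contrasts between classes were called under TMM alone, not under 3 scalings. Contrasts between classes then had 20 to 24 higher and 21 to 23 lower for early spermatocytes, 47 to 51 and 35 to 37 for pachytene and later cells, 17 to 36 and 49 to 76 for round, 35 to 50 and 31 to 39 for elongating spermatids, 90 to 93 and 6 to 6 for Leydig-like cells, and 22 to 42 and 44 to 57 for spermatids against somatic classes. With all 4 libraries TMM alone gave 23 and 23, 52 and 36, 36 and 50, 51 and 33, 91 and 7, and 43 and 44 in the same order. The difference in percent for mitochondrial members was -0.573 to -0.260 in Leydig-like cells, -0.0181 to 0.0233 over all cells, -0.0165 to -0.0153 in elongating, -0.0214 to 0.0164 in pachytene and later and 0.00533 to 0.00763 in round spermatid-like cells. For nuclear members it was -0.162 to -0.118, 0.0886 to 0.140, 0.0510 to 0.0983, -0.0840 to 0.0209 and 0.00406 to 0.0591 in the same order.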

Other observations

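Both HFD libraries lay above both ND libraries for Ndufaf3 in 9 of the 12 classes, called in Leydig-like and elongating spermatid-like cells, and the diets overlapped in fibroblast-like, lymphocyte-like and peritubular myoid-like cells. The classes come from the same 4 libraries and are not separate observations. How many of all genes split in this way is not given here, so the 9 classes cannot be set against a background. In Sertoli-like cells Ndufaf3 had 538 and 568 CPM in HFD and 485 and 494 CPM in ND (log2 ratio 0.19, edgeR adjusted p = 0.67), and in macrophage-like cells 675 and 711 CPM against 445 and 519 CPM (0.46, adjusted p = 0.29). In spermatogonia-like cells it had 448 and 392 CPM against 358 and 318 CPM (0.32, adjusted p = 0.61). Spermatogonia-like and early spermatocyte-like cells had lower Atp5mpl in HFD, at 332 and 345 CPM against 449 and 420 CPM and at 192 and 188 CPM against 234 and 259 CPM. The log2 ratios were -0.37 and -0.37, with adjusted p = 0.57 and 0.41. All of these were noticed in the data and are values only.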
